A study of Saccharomyces cerevisiae with 5 samples.

Results

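The pericentromeric regions of the 16 chromosomes of Saccharomyces cerevisiae are the stretches within 20 kb of each centromere. They were chosen by position alone, with centromere positions rounded to 1 kb, and all 16 were found. Each sample held 1280 pericentromeric positions, 5.37% of the 23837 to 23858 positions at which the authors give a replication time. In the RefSeq gene table (assembly R64, used for gene order only, since the build of the files is not given in the sources used here), all 16 positions fall between the first gene of the left arm and the first gene of the right arm by locus tag, for example between ECM15 and NTH2 on chromosome II and between DNM1 and YLR001C on chromosome XII.

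The data are 5 fitted replication profiles from sequenced Okazaki fragments, the unjoined stretches of newly copied lagging strand, which show the direction in which forks copy each place. Galactose samples E and G (n = 2) are strain yIW160-SSDDCS after 4 hours in 2% galactose, which induces 6 initiation factors: Sld2, Sld3, Dbf4, Dpb11, Cdc45 and Sld7. Glucose sample F (n = 1) is the same strain after 4 hours in 2% glucose, and wild type A and B (n = 2) are strain yIW160, whose own medium is not among its labels. All 5 were asynchronous cultures at 30 degrees, given doxycycline at 40 micrograms per ml for 2.5 hours, which in this assay represses DNA ligase I and leaves the fragments unjoined. Galactose medium cannot be told apart from overexpression of the factors, nor sequencing platform from strain, since the yIW160-SSDDCS samples were read on Ion Torrent (single-end) and the wild type on Illumina (paired-end). Nothing in the labels says that replicates are separate cultures, so p-values measure only the spread between these samples. Read depth is unknown, and the fits hold 3345 and 3189 path segments in galactose E and G, against 4545 in glucose F and, for wild type A and B, 6353 and 6039.

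Budding yeast has point centromeres, short sequences on which a single kinetochore is built. In this organism the pericentromeres are known to replicate early: the Ctf19 complex of the kinetochore brings the Dbf4-dependent kinase to the centromere, and this kinase promotes the binding of Sld3 and Sld7 to nearby origins. Dbf4, Sld3 and Sld7 are among the 6 factors raised in the galactose samples. The comparisons ask when the pericentromeres are copied, from which initiation sites and in which direction, with and without induction of the factors.

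Pericentromeres were copied earlier than the rest of their chromosomes in all 5 samples, but by a much smaller margin in galactose. Averaged over the 16 chromosomes, the time within 20 kb minus the time elsewhere on the same chromosome stood at -2.11 min for galactose E and -1.48 min for galactose G, against -8.31 min in glucose F and, for wild type A and B, -8.45 and -7.48 min. The galactose samples lay nearest to 0 and did not overlap with the other 3, while glucose lay between both wild-type values. The galactose mean was -1.80 ± 0.448 min (SD, n = 2), against the single glucose value of -8.31 min and a wild-type mean of -7.96 ± 0.687 min (SD, n = 2), so the galactose margin was 6.28 min smaller than the mean of the other 3 samples. The two-sided exact permutation p was 0.1, the smallest that 2 samples against 3 allow, and 0.15 after Benjamini-Hochberg adjustment over 9 measures per sample. All 5 values were below 0, with a two-sided exact sign permutation p of 0.0625, again the smallest possible. Set against the flanks from 20 to 60 kb alone, the margin was -1.77 and -1.53 min in galactose, against -3.30 min in glucose and, for wild type, -3.91 and -3.70 min, a difference of 1.99 min in place of 6.28.

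These times come from the authors' fit with a constant fork speed, and the earliest averaged position of every chromosome is 0 min in each of the 5 samples. A time therefore counts from the earliest place on that chromosome, and only differences within a chromosome are free of this zero. Averaged over positions, the pericentromeres stood at 6.21 and 7.89 min in galactose, against 4.71 min in glucose and, for wild type, 4.01 and 5.23 min. All other positions stood at 9.27 and 10.9 min in galactose, against 14.5 min in glucose and, for wild type, 13.4 and 14.1 min. In galactose the pericentromeres were thus later and the rest earlier, but with this zero the values do not show which part moved. The mean time of the rest of a chromosome ran from 3.85 to 14.3 min over the chromosomes in galactose E and from 4.15 to 19.6 min in G, against 8.63 to 29.9 min in glucose F, 6.89 to 16.8 min in wild type A and 5.22 to 19.8 min in B. In units of the SD over all positions of the sample, the pericentromeric margin was -0.410 and -0.207 in galactose, against -0.876 in glucose and, for wild type, -1.25 and -1.06.

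The place that was earliest on its chromosome often lay in the pericentromere in glucose and wild type. Galactose E had 0 such chromosomes and galactose G had 1, chromosome IV, against 6 of 16 in glucose F, 6 in wild type A and 7 in wild type B. Chromosomes II, VII, X and XIII were among them in glucose and in both wild-type samples. By rank within the chromosome, pericentromeric positions stood at a mean percentile of 32.4 and 39.4 in galactose, against 15.5 in glucose and, for wild type, 13.1 and 16.1. By rank over the whole genome they stood at 32.8 and 35.6 in galactose, against 13.7 in glucose and, for wild type, 11.9 and 15.3. Galactose lay 20.6 percentiles later than the other 3 in the genome-wide rank, with an exact permutation p of 0.1 (adjusted p = 0.15).

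**Figure D1:**
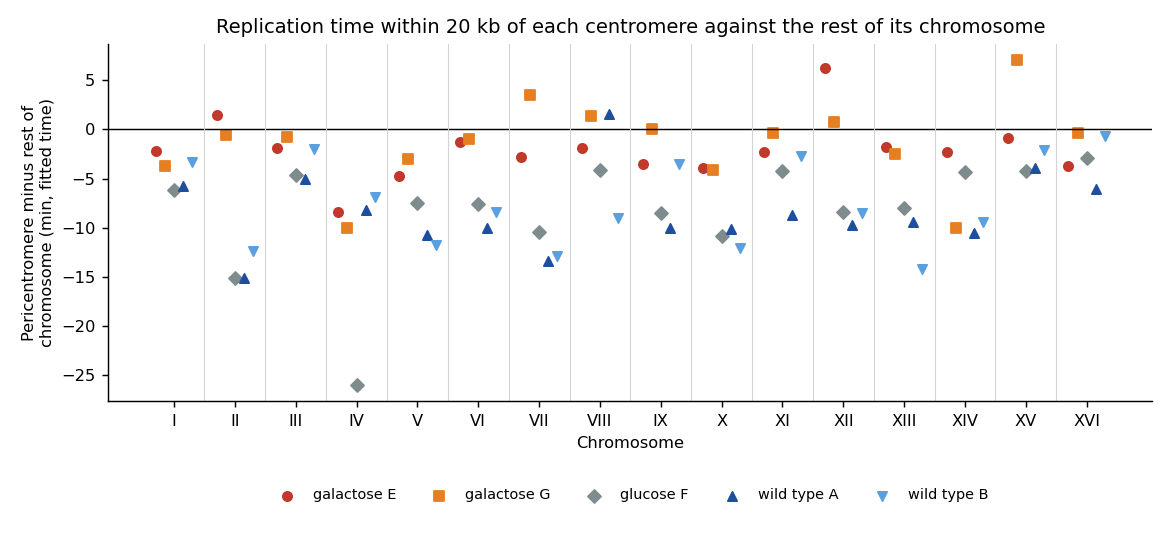
Mean fitted time within 20 kb of each centromere minus the mean of the rest of the chromosome, in minutes, for the 16 chromosomes, with 1 symbol per sample and a line at 0. Glucose and wild-type symbols lie below 0 except wild type A on chromosome VIII, and the galactose symbols lie above all 3 others on 11 chromosomes.

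Chromosome by chromosome, the pericentromere was earlier than the rest on 14 and 11 of 16 chromosomes in galactose E and G, against 16 in glucose F and, for wild type A and B, 15 and 16. Among 259 stretches of 40 kb away from the centromeres, the share earlier than the rest of their chromosome was 53.3% and 52.1% in galactose, against 47.1% in glucose and, for wild type, 49.4% and 46.7%. On 10 of 16 chromosomes the pericentromere was earlier in every sample, as were 12.4% of the other stretches. Both galactose values lay above the other 3 on 11 of 16 chromosomes and below all 3 on none, where 16.2% of the other 40 kb stretches lay above and 19.3% below. The 5 chromosomes outside the 11 are I, IV, VIII, XIV and XVI.

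Chromosomes IV, II and X had the earliest pericentromeres relative to the rest, by the mean of the 3 groups. On chromosome IV the difference was -8.43 and -10.0 min in galactose, against -26.0 min in glucose and, for wild type, -8.19 and -6.89 min, so here glucose stood apart and galactose lay beside wild type. The rest of chromosome IV stood at 29.9 min in glucose, against 14.3 and 15.2 min in galactose and, for wild type, 16.5 and 19.8 min. Its pericentromere stood at 3.96 min in glucose, against 5.84 and 5.17 min in galactose and, for wild type, 8.27 and 12.9 min. On chromosome II the difference was 1.51 and -0.551 min in galactose, against -15.1 min in glucose and, for wild type, -15.1 and -12.4 min. The chromosome II pericentromere, among the earliest regions in glucose and wild type, was thus close to the rest of its chromosome in galactose. On chromosome X the margin was kept in part, with -3.93 and -4.13 min in galactose, against -10.8 min in glucose and, for wild type, -10.2 and -12.1 min.

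The latest pericentromeres were those of XVI, VIII and XV. On chromosome XV the difference was -0.823 and 7.04 min in galactose, against -4.26 min in glucose and, for wild type, -3.94 and -2.08 min. On chromosome XVI it was -3.74 and -0.348 min in galactose, against -2.88 min in glucose and, for wild type, -6.07 and -0.651 min, and the groups overlapped. On chromosome VIII, at -1.89 and 1.32 min in galactose, against -4.08 min in glucose and, for wild type, 1.59 and -8.96 min, the wild-type replicates were further apart than any groups.

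On chromosome XII both galactose samples lay above 0 and the other 3 below it. The values were 6.26 and 0.793 min in galactose, against -8.40 min in glucose and, for wild type, -9.75 and -8.49 min. Chromosome VII was split between the galactose replicates, with -2.80 and 3.54 min in galactose against -10.5 min in glucose and, for wild type, -13.4 and -12.9 min. In galactose G the whole of chromosome VII was late from its own zero, with a mean of 23.1 min in the pericentromere and 19.6 min in the rest, against 8.80 min in the pericentromere of galactose E. Without chromosome VII the galactose margin was still 5.86 min smaller than that of the other 3, and without chromosome IV it was 6.40 min smaller.

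As deposited times, V, IV, XIII, II and XII were the 5 pericentromeres with the largest shift to later times in galactose than in glucose, among those where both replicates shifted by more than they differed. For chromosome XIII the mean pericentromeric time was 9.25 and 6.67 min in galactose, against 3.05 min in glucose and, for wild type, 3.25 and 2.77 min. For chromosome V it was 3.14 and 3.51 min in galactose, against 2.56 min in glucose and, for wild type, 2.18 and 2.43 min, a shift of under 1 min. Relative to the rest of the chromosome, chromosome V stood at -4.72 and -2.96 min in galactose, against -7.44 min in glucose and, for wild type, -10.7 and -11.8 min. Only XIV, VI and X met the same condition in the earlier direction. Their pericentromeres stood at 3.79 and 4.04 min (XIV), 2.55 and 3.18 min (VI) and 2.72 and 2.44 min (X) in galactose, against 7.58, 5.92 and 4.05 min in glucose. In wild type the same 3 stood at 1.97 to 4.01 min, so glucose was the late one there, counted only from the earliest place of each chromosome. Relative to the rest of the chromosome, glucose was earlier than galactose on VI, at -7.57 min against -1.30 and -0.965 min. The same held on X, at -10.8 min against -3.93 and -4.13 min. On XIV glucose, at -4.34 min, lay between the galactose values of -2.28 and -9.99 min.

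**Figure D2:**
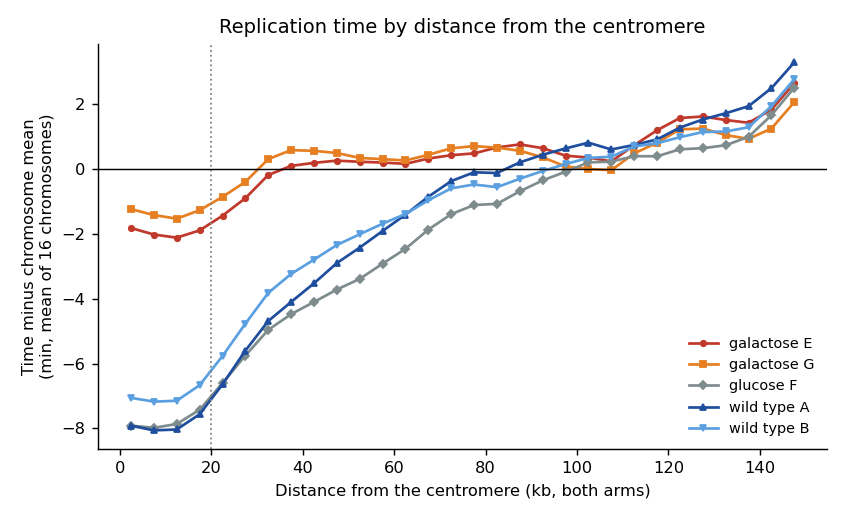
Fitted time minus the mean of the chromosome, in minutes, averaged over 16 chromosomes in 5 kb steps of distance from the centromere on both arms, with 1 line per sample and a dotted line at 20 kb. The 2 galactose lines start at -1.83 and -1.24 min and reach 0 between 30 and 40 kb, and the glucose and wild-type lines start between -7.06 and -7.91 min and reach 0 only between 85 and 105 kb.

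The early zone around centromeres was both shallower and narrower in galactose. Within 5 kb the time minus the chromosome mean was -1.83 and -1.24 min in galactose, against -7.91 min in glucose and, for wild type, -7.91 and -7.06 min. At 15 to 20 kb it was -1.90 and -1.28 min in galactose, against -7.42 min in glucose and, for wild type, -7.56 and -6.67 min. Just outside, at 20 to 25 kb, it was -1.45 and -0.866 min in galactose, against -6.60 min in glucose and, for wild type, -6.64 and -5.77 min, so the 20 kb limit lies inside the early zone of all 5 samples. At 55 to 60 kb, the galactose samples stood at 0.191 and 0.295 min, while glucose stood at -2.92 min and wild type at -1.92 and -1.69 min.

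Window by window, the calls depended on the time zero. Of 2386 windows of 5 kb, 128 have their midpoint within 20 kb of a centromere. On the deposited times, limma called 0 of the 128 in galactose against glucose (11 at an unadjusted p under 0.05), 0 against wild type (26) and 0 between glucose and wild type (4). Over all windows it called 7.63%, 7.8% and 3.77%, all of them earlier in galactose or, in the last comparison, later in glucose. With the mean of each chromosome subtracted in each sample, an alternative chosen after seeing the data, limma called 23 of the 128 later in galactose than in glucose and 0 earlier. All 23 lay on chromosomes II, IV, VII and XII, while 10.7% of all windows were called, 5.32% later and 5.36% earlier. Against wild type it called 32 later and 0 earlier, the 8 windows each of chromosomes II, VII, XII and XIII, where 17.3% of all windows were called, 7.8% later and 9.47% earlier.

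Relative to the chromosome mean, the called shifts were large. Chromosome II shifted by 13.2 to 16.2 min against glucose (adjusted p 0.0140 to 0.0246 by limma) and by 12.4 to 14.7 min against wild type (0.00142 to 0.00563). Chromosome XII shifted by 11.5 to 12.4 min in its 4 windows called against glucose (adjusted p 0.0332 to 0.0451) and by 11.6 to 12.6 min against wild type (0.00566 to 0.00958). On chromosome IV all 8 windows were 15.2 to 18.1 min later in galactose than in glucose. The same 8 were 15.1 to 20.1 min earlier in glucose than in wild type, where 8.76% of all windows were called, 4.36% later and 4.4% earlier. On the deposited times, which do not carry the late rest of chromosome IV in glucose, these windows were only 0.467 to 3.37 min later in galactose than in glucose. They were 3.76 to 8.76 min earlier in glucose than in wild type. The 8 windows called between glucose and wild type became 0 without wild type A or without wild type B (8 at an unadjusted p under 0.05 in each case), and 5 without galactose E or without galactose G. Leaving out any 1 of galactose E, galactose G, wild type A or wild type B left 0 windows called in galactose against glucose or wild type, inside or outside the pericentromeres (31 to 55 pericentromeric windows at an unadjusted p under 0.05).

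Without a test, both galactose samples lay above the other 3 in 50 of 128 pericentromeric windows on the deposited times (39.1%, against 8.05% of all windows) and below them in 1 (0.781%, against 40.5%). With the chromosome mean subtracted these counts were 84 above and 0 below, against 21.4% and 19.9% of all windows. The excess of later windows in the pericentromeres over all windows thus showed on both scales. Early windows elsewhere were not counted separately here.

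**Figure D3:**
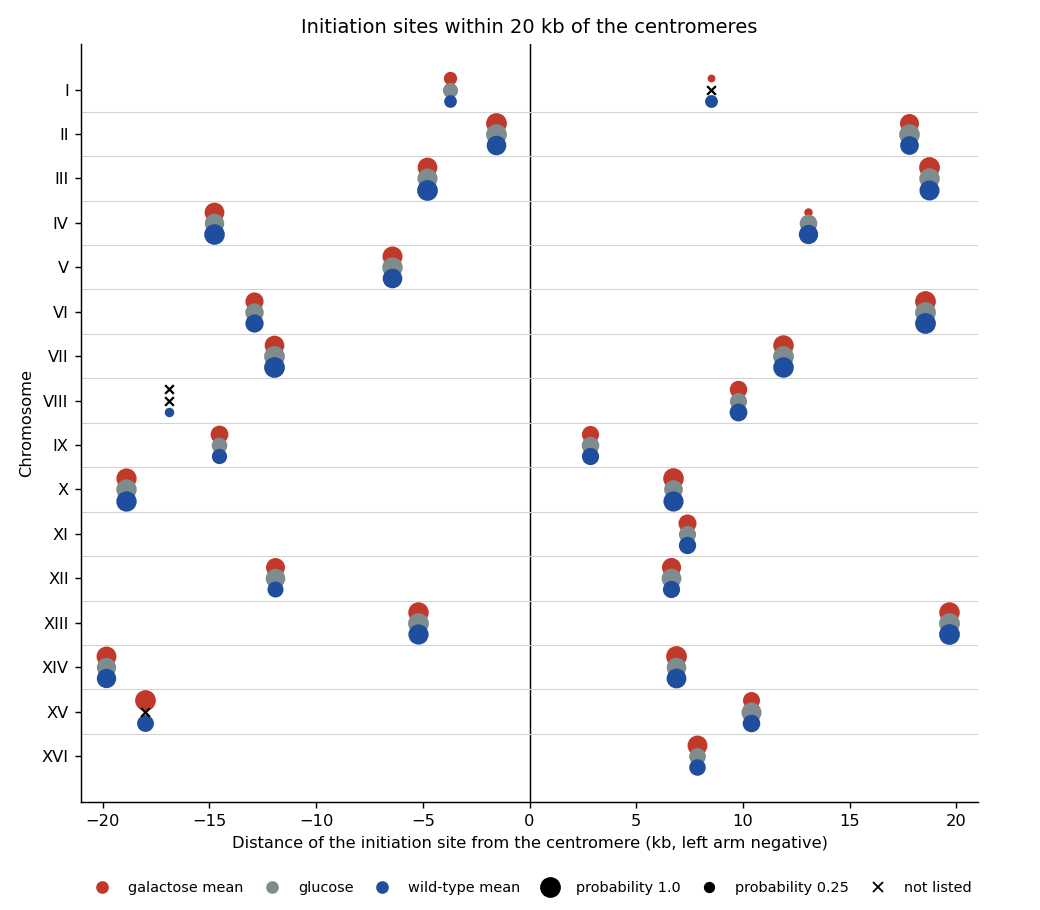
Initiation sites within 20 kb of each centromere, placed by distance in kb (left arm negative), with 1 row of circles per group on each chromosome. The area of a circle is the initiation probability (mean of the replicates, with 0 where a replicate lists no site). A cross marks a site that no sample of the group lists. As joined within 2.5 kb, 25 of the 29 sites are listed in all 5 samples.

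The initiation sites around centromeres, as joined across samples within 2.5 kb, were nearly the same in the 3 groups. Initiation sites are those positions from which 1 rightward and 1 leftward path both depart, and the probability of a site is the share of genome copies that start there. Of 406 sites joined across samples, 29 lie within 20 kb of a centromere. All 5 samples listed 25 of the 29 (86.2%), against 201 of the 377 other sites (53.3%). As joined, no site of the 29 was private to the galactose samples, but on chromosome II this rested on wild type A. The site nearest that centromere lay at 238205 and 237680 in galactose, against 234961 in glucose and, for wild type, 236162 and 235115. Without wild type A it split into sites at 235038 and 237942. Galactose minus glucose was -1 at the former and 1 at the latter, and galactose minus wild type was the same. The exceptions to full sharing were a weak site on chromosome I at 159523, one on VIII at 89107 listed only in wild type B (0.327), the site on IV at 463060 and the site on XV at 308984.

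Several pericentromeric sites fired in almost every genome copy of all samples. The site on chromosome VI at 167542, 18.5 kb right of the centromere, had a probability of 1 in all 5. Chromosome XIII had a pair of strong sites. The one at 262789 had 0.938 and 1 in galactose, against 1 in glucose and, for wild type, 0.891 and 1. The one at 287658 had 0.954 and 1 in galactose, and a probability of 1 in each of the other 3 samples. The sites on VII at 508880 and on III at 132723 completed the 5 strongest, with values of 0.949 and 1 in galactose, against 1 in glucose and, for wild type, 0.957 and 1 for VII, and 1 and 1 in galactose, against 0.971 in glucose and, for wild type, 0.900 and 0.947 for III. At the other extreme, the nearest site of chromosome I, at 147290, stood at 0.438 and 0.299 in galactose, against 0.492 in glucose and, for wild type, 0.262 and 0.401.

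Of the 29 sites, limma called 3 in galactose against glucose, all higher, where 29.1% of all sites were called, 24.1% higher and 4.93% lower. On chromosome XV at 308984, 18.0 kb left of the centromere, the probability was 1 and 1 in galactose, against 0 in glucose and, for wild type, 0.675 and 0.585. Galactose exceeded glucose there by 1.00 ± 0.0511 (SE) with an adjusted p of 0.00626, and wild type by 0.370 ± 0.0417 with an adjusted p of 0.0180 by limma. On chromosome XVI at 563850, 7.85 kb right of the centromere, it was 0.911 and 0.914 in galactose, against 0.622 in glucose and, for wild type, 0.567 and 0.639. The gain was 0.291 ± 0.0429 over glucose (adjusted p = 0.0311) and 0.309 ± 0.0350 over wild type (adjusted p = 0.0180), again by limma. The third was chromosome X at 442714, with 0.974 and 1 in galactose, against 0.792 in glucose and, for wild type, 0.927 and 0.953, where glucose was the low sample (adjusted p = 0.0317 against glucose and 0.245 against wild type by limma). These calls did not hold with 1 galactose sample: the adjusted p against glucose was 0.0590 for XV, 0.166 for XVI and 0.0896 for X without galactose E, and 0.0620, 0.176 and 0.108 without galactose G (limma). X was also lost without wild type A or B (0.0990 and 0.0885). The direction of the calls turned as well, with 0 higher and 4 lower without galactose E and 1 higher and 4 lower without galactose G, each time including lower calls on II at 255797, on IV at 463060 and on XV at 337370, named here after their values were seen.

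Against wild type, 3 of 29 sites passed, where 39.7% of all sites did, 35.5% higher and 4.19% lower: the sites on XV and XVI were higher and 1 was lower. The lower one, on chromosome IV at 463060 (13.1 kb right of the centromere), had a probability of 0.247 and 0 in galactose, against 0.699 in glucose and, for wild type, 0.841 and 0.871. Its loss of 0.732 ± 0.105 (SE) against wild type had an adjusted p of 0.0248, and its loss of 0.575 ± 0.129 against glucose had an adjusted p of 0.0672 and did not pass (limma). Its call against wild type held without galactose E or G (adjusted p = 0.0194 and 0.0323 by limma) and was lost without wild type A or B (0.177 and 0.170), and those on XV and XVI were lost without galactose E (0.143 and 0.137) or G (0.149 and 0.146). Between glucose and wild type limma called 0 of 29 (6 at an unadjusted p under 0.05) and 1.72% of all sites. Without a test, both galactose samples lay above the other 3 at 7 of 29 pericentromeric sites (24.1%), against 201 of the 377 other sites (53.3%) and 51.2% of all sites, and below them at 1, the site on IV, against 2.71% of all sites. A probability cannot exceed 1, so a site already at 1 in glucose or wild type, such as VI at 167542 or VII at 485027, could not count as above. These shares do not account for that limit.

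**Figure D4:**
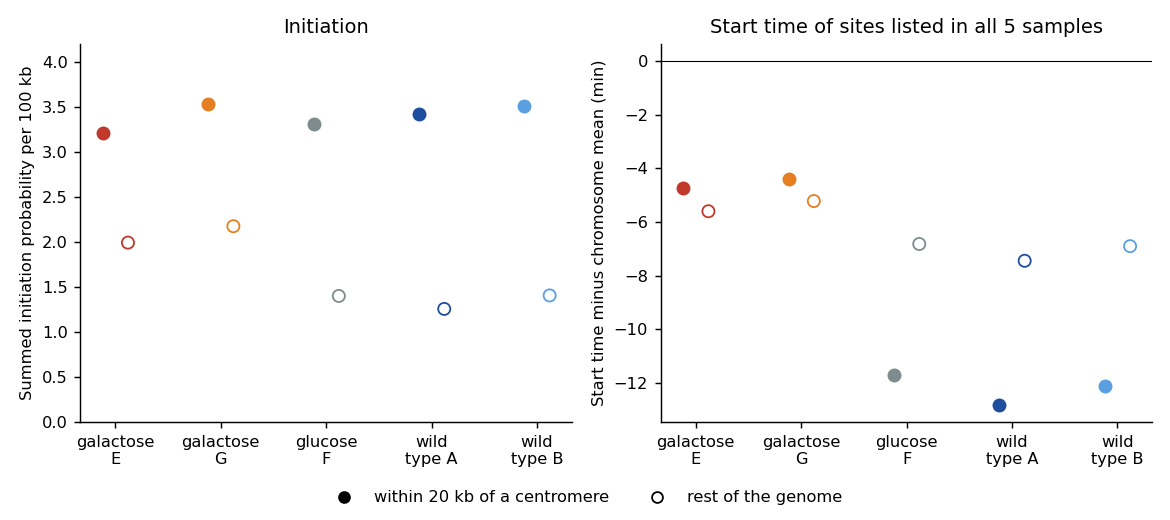
Left, summed initiation probability per 100 kb within 20 kb of the centromeres (filled) and in the rest of the genome (open), for each sample. Right, mean start time of the initiation sites listed in all 5 samples, minus the mean time of their chromosome, in minutes: filled and open circles lie within 1 min of each other in galactose, and the filled ones lie about 5 min lower in glucose and wild type.

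Total initiation within 20 kb of the centromeres was close in all groups, whereas the rest of the genome differed. Summed within 20 kb of the 16 centromeres, the probability was 20.5 and 22.6 initiations per genome copy in galactose, against 21.2 in glucose and, for wild type, 21.9 and 22.5 (exact permutation p = 0.8). That is 3.21 and 3.53 per 100 kb in galactose, against 3.31 in glucose and, for wild type, 3.42 and 3.51. In the rest of the genome it was 1.99 and 2.18 per 100 kb in galactose, against 1.40 in glucose and, for wild type, 1.26 and 1.41. The pericentromeric density was thus 1.61 and 1.62 times that of the rest in galactose, 2.36 times in glucose, and 2.72 and 2.50 times in wild type, a drop of 0.908 for galactose against the other 3 (exact permutation p = 0.1, adjusted p = 0.15). The sum of both galactose samples exceeded the other 3 on 2 of 16 chromosomes, XV and XVI, and was below them on 1, IV, where 59.5% of the other 40 kb stretches were above and 2.32% below. The sum in galactose E leaves out a site of probability 0.954 on XIII and one of 0.920 on XIV that lie just beyond 20 kb in that sample, and the sum in glucose F leaves out the same XIV site, at 0.848. Counted by their joined positions, the sums were 22.4 and 22.6 in galactose, against 22.0 in glucose and, for wild type, 21.9 and 22.5.

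The same sites differed in start time relative to the mean of their chromosome. Over the 25 shared pericentromeric sites, the mean start was 4.74 and 4.39 min before the chromosome mean in galactose, against 11.7 min before it in glucose and 12.8 and 12.1 min before it in wild type. Over the 201 shared sites elsewhere it was 5.60 and 5.22 min before the mean in galactose, against 6.82 min in glucose and, for wild type, 7.44 and 6.90 min. Pericentromeric minus other sites was therefore 0.852 and 0.826 min in galactose, against -4.90 min in glucose and, for wild type, -5.38 and -5.20 min, and galactose exceeded the other 3 by 6.00 min with an exact permutation p of 0.1, the smallest possible. This comparison was not among the 9 measures adjusted together, so its p is unadjusted. Taken within each chromosome and then averaged, the difference was 0.167 and 0.584 min in galactose, against -5.28 min in glucose and, for wild type, -5.10 and -4.67 min. On deposited start times it was -0.330 and -0.713 min in galactose, against -6.32 min in glucose and, for wild type, -6.24 and -6.79 min. The sign in galactose thus depended on the scale. Within chromosomes, the shared pericentromeric sites started earlier than the other shared sites on 8 and 4 of 16 chromosomes in galactose, against 16 in glucose and, for wild type, 15 and 14. The probability of the 25 sites differed little, at 0.846 and 0.856 in galactose, against 0.852 in glucose and, for wild type, 0.803 and 0.813. The 201 others stood at 0.853 and 0.888 in galactose, against 0.696 in glucose and, for wild type, 0.615 and 0.672. Outside galactose they thus had more room below the limit of 1 than the 25 had.

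Windows that were early in wild type and centred more than 20 kb from a centromere were set beside the pericentromeres. They can include the flanks of centromeres, since the 20 kb limit lies inside the early zone. Of the 128 pericentromeric windows, 105 (82.0%) belong to the earliest 25% of windows by mean wild-type time relative to the chromosome, with 492 such windows elsewhere. Relative to the chromosome mean, the 105 stood at -2.23 and -2.27 min in galactose, against -8.91 min in glucose and, for wild type, -9.08 and -8.11 min. The 492 stood at -1.20 and -2.54 min in galactose, against -4.52 min in glucose and, for wild type, -6.61 and -6.75 min. Early windows elsewhere were thus also nearer to the mean in galactose. The pericentromeric excess was -1.03 and 0.271 min in galactose, against -4.40 min in glucose and, for wild type, -2.47 and -1.36 min. Both kinds of window were chosen on the wild-type samples, so these values are a description with no test.

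The distance from a centromere to its nearest initiation site did not separate the groups. The median over 16 centromeres was 6.95 and 6.72 kb in galactose, against 6.82 kb in glucose and, for wild type, 6.89 and 6.96 kb (exact permutation p = 0.6). Over all positions of the genome the median was 9.71 and 8.98 kb in galactose, against 11.1 kb in glucose and, for wild type, 10.9 and 9.89 kb. All 16 centromeres had a site within 20 kb in each of the 5 samples, as did 84.6% and 87.7% of all positions in galactose, against 77.5% in glucose and, for wild type, 79.2% and 83.1%. A site lay within 10 kb of 12 and 12 centromeres in galactose, against 12 in glucose and, for wild type, 11 and 11. By the mean of the 3 groups, chromosome II had the closest, 0.205 and 0.320 kb away in galactose, against 3.04 kb in glucose and, for wild type, 1.84 and 2.88 kb. In galactose E it was placed on the right of the centromere and in the other 4 samples on the left, and with centromeres rounded to 1 kb its side is not settled. By the same mean the most distant was that of chromosome IV, 13.5 and 14.8 kb away in galactose, against 13.6 kb in glucose and, for wild type, 12.9 and 12.7 kb.

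**Figure D5:**
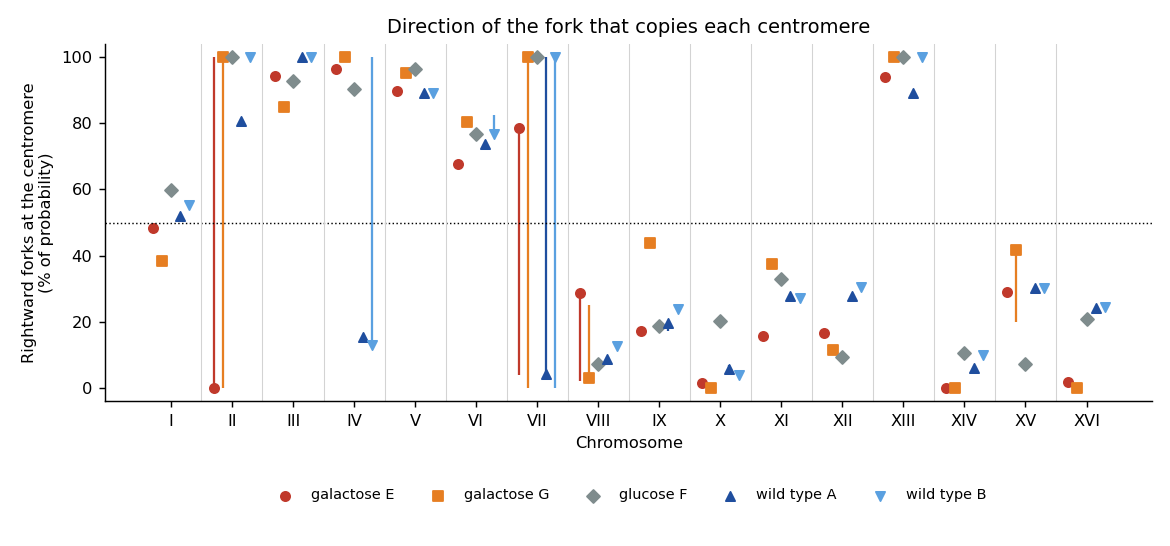
Share of rightward forks at each centromere, in percent of probability, with 1 symbol per sample and a vertical bar over the values from 1 kb to the left to 1 kb to the right of it. The symbols of all 5 samples lie on the same side of the dotted 50% line on 12 chromosomes, and long bars mark centromeres beside a site (II) or a meeting point of forks (IV, VII).

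Most centromeres were copied in the same direction in every sample. Rightward forks were the majority in all 5 samples at the centromeres of III, V, VI and XIII, and leftward forks at those of VIII, IX, X, XI, XII, XIV, XV and XVI. These 12 of 16 held their direction from 1 kb to the left to 1 kb to the right as well. Of all 5 kb windows, 69.4% had 1 majority direction in all 5 samples, so the share of centromeres was near that of the genome. The more frequent direction made up a mean of 85.1% and 86.5% in galactose, against 86.8% in glucose and, for wild type, 82.2% and 84.1% (exact permutation p = 0.5). Over all positions of the genome the same mean was 89.2% and 90.5% in galactose, against 86.0% in glucose and, for wild type, 80.5% and 82.5%.

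In all 12 cases more than 50% of copies in each sample were reached from 1 site, and it lay on the same side in all 5. The centromere of XIII, for example, was reached from a site 4.92 and 5.00 kb to the left in galactose, against 4.90 kb in glucose and, for wild type, 5.59 and 5.67 kb, in 94.1% and 100% of copies in galactose, against 100% in glucose and, for wild type, 89.1% and 100%. That of XIV was reached from a site 6.71 and 6.94 kb to the right in 100% of copies in both galactose samples, 6.80 kb away in 89.5% in glucose, and 6.95 and 6.98 kb away in 93.9% and 90.1% in wild type.

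The remaining 4 centromeres were those of I, II, IV and VII. Chromosome I was the only one where both galactose samples had a leftward majority and the other 3 a rightward one. The rightward share was 48.3% and 38.4% in galactose, against 59.7% in glucose and, for wild type, 52.0% and 55.2%, all within 12 percentage points of an even split. At the centromere of IV the rightward share was 96.4% and 100% in galactose, against 90.4% in glucose and, for wild type, 15.5% and 12.9%, so here both media of the yIW160-SSDDCS strain differed from wild type. The main source was a site on the left, 14.6 and 14.8 kb away in galactose and 14.5 kb in glucose. In wild type it was the site 12.9 and 12.7 kb to the right, the one whose probability was lower in galactose but still 0.699 in glucose. From the zero of the chromosome, the left site started at -0.446 and -0.656 min in galactose and -1.61 min in glucose, against 5.99 and 10.3 min in wild type. The part of either site in the direction was not tested. At the centromere of VII, which lies almost midway between the sites at 485027 and 508880, forks met within 1 kb in galactose E and G and in wild type A and B.

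Along the whole 40 kb, the windows whose fork direction passed the test lay on 9 of 16 chromosomes. Of the 128 windows, limma called 18 in galactose against glucose, 9 more rightward and 9 less (14.1%, against 12.2% of all windows, 6.16% more and 6.08% less). It called 18 against wild type, 11 more and 7 less (14.1%, against 19.2%, 9.85% more and 9.3% less), and 0 between glucose and wild type (28 at an unadjusted p under 0.05), where it called 0% of all windows. The share called was near that of the whole genome in the first comparison and below it in the second. Without galactose E, or without galactose G, limma called 0 of 128 in either comparison.

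Chromosome XVI held the most, with 6 windows called against glucose and 7 against wild type. Just left of its centromere, in the window centred 3.50 kb away, the rightward share was 1.77% and 0% in galactose, against 20.8% in glucose and, for wild type, 24.0% and 24.5% (adjusted p = 0.0322 and 0.0171 by limma). In the window 11.5 kb to the right, beyond the site at 563850, it was 93.1% and 91.6% in galactose, against 65.6% in glucose and, for wild type, 62.9% and 67.4% (adjusted p = 0.0391 and 0.0233). On XV the window centred 9.50 kb left of the centromere, just right of the site at 308984, had 100% and 100% rightward forks in galactose, against 7.35% in glucose and, for wild type, 77.3% and 62.8% (adjusted p = 0.0287 against glucose and 0.0746 against wild type by limma). On IV the window 2.50 kb to the right had 96.4% and 99.4% in galactose, against 89.8% in glucose and, for wild type, 15.5% and 12.9% (adjusted p = 0.167 against glucose and 0.00865 against wild type by limma).

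Other called windows were spread over 6 chromosomes. On I the window 18.5 kb to the left had 100% and 95.0% in galactose, against 15.7% in glucose and, for wild type, 40.9% and 30.2%, and on VIII the window at the same distance had 87.9% and 89.5% in galactose, against 18.2% in glucose and, for wild type, 12.1% and 18.4%. On X the window 3.50 kb to the left of the centromere had 10.1% and 0% in galactose, against 82.0% in glucose and, for wild type, 24.0% and 13.6%, and again glucose was the sample apart. On XI, XIV and II, between 1 and 3 windows were called in at least 1 of the comparisons with galactose.

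On average, forks reached the centromeres over shorter distances in galactose and met more often near them, though also more often in the rest of the genome. The distance that forks travel to places elsewhere is not given here. The mean distance from the initiation site to the centromere, weighted by the copies that each site supplies, was 10.1 and 9.86 kb in galactose, against 11.7 kb in glucose and, for wild type, 12.9 and 12.9 kb. Both galactose samples were below the other 3, by 2.47 kb on average, with an exact permutation p of 0.1 (adjusted p = 0.15). The difference was widest on XVI, at 9.80 and 9.70 kb in galactose, against 19.3 kb in glucose and, for wild type, 24.0 and 20.2 kb, and on XI, at 10.2 and 13.5 kb in galactose, against 18.1 kb in glucose and, for wild type, 19.7 and 18.4 kb. On IV the order was the opposite, at 17.3 and 16.4 kb in galactose, against 15.3 kb in glucose and, for wild type, 13.1 and 13.0 kb. On I, II, X, XII, XIV and XV both galactose samples were also below the other 3. On III, V, VI, VII, VIII, IX and XIII the distances of galactose overlapped with those of the other 3.

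Termination events, where a rightward and a leftward path end together, summed within 20 kb of the centromeres to 16.7 and 18.2 in galactose, against 12.1 in glucose and, for wild type, 11.4 and 12.7. Galactose exceeded the other 3 by 5.35, with an exact permutation p of 0.1 (adjusted p = 0.15). Per 100 kb this was 2.61 and 2.84 in galactose, against 1.90 in glucose and, for wild type, 1.78 and 1.99. In the rest of the genome it was 1.89 and 2.08 in galactose, against 1.34 in glucose and, for wild type, 1.20 and 1.35. The rise in galactose was thus not particular to the pericentromeres. On XVI the sum was 1.61 and 1.84 in galactose, against 0.334 in glucose and, for wild type, 0.260 and 0.292, and on II it was 1.79 and 1.83 in galactose, against 0.987 in glucose and, for wild type, 0.770 and 0.793.

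Within a sample, the fitted paths that pass a pericentromeric position differed less in time in galactose. The mean SD of path times was 1.77 and 1.50 min in galactose, against 3.22 min in glucose and, for wild type, 4.35 and 4.27 min (galactose minus the other 3, -2.31 min, exact permutation p = 0.1, adjusted p = 0.15). In the rest of the chromosomes it was 2.90 and 2.28 min in galactose, against 5.13 min in glucose and, for wild type, 6.83 and 6.02 min. The number of path segments moves with this measure, being lowest in galactose and highest in wild type, and its part in the result was not tested.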

How the data were processed

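Per the labels, the authors deposited 3 tables per sample: line segments of fork paths, in minutes, each weighted by a probability (a fraction from 0 to 1), the same paths sampled along the chromosomes, and a weighted mean time in minutes at steps of 500 bases. The deposited fractions and times were used as they stand. Neither aligner nor genome build nor fitting software is stated (not given in the sources used here), so coordinates are those of the files and no genome sequence was read. The files analysed hold no read counts, so no interval for depth was computed. The members and lists were chosen with earlier results of these data known.

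Initiation sites needed a probability of at least 0.1 and were joined across samples within 2.5 kb by single linkage. Windows of 5 kb needed 50% of their positions in all samples. Windows and sites were fitted using lmFit and eBayes of limma 3.58.1 under R 4.3.3 (1 spread shared by 3 groups over 5 samples, 2 residual degrees of freedom, two-sided, Benjamini-Hochberg threshold 0.05 over all windows or sites), which gives the single glucose sample the spread of the other groups. Neighbouring windows share forks. Values per sample were tested by two-sided exact permutation of the 2 galactose samples against the other 3. Python 3.11.15 with numpy 2.4.6, pandas 2.3.3 and scipy 1.17.1 did the rest, and the scripts were tested on simulated data.

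Values in every sample are given, by rule, for the 3 earliest and 3 latest pericentromeres, up to 5 with the largest galactose minus glucose time in each direction, those with a called window or site, any whose majority fork direction differs between galactose and the other 3, and the 5 strongest sites. The percentile was planned as free of the time zero, but the zero is set on each chromosome, so the rank within the chromosome is given beside it. Path time spread, fork travel, the density ratio, chromosome-relative times and joined sums were added after seeing the data. Replacing the widths, thresholds, joining distance, scale and rest of the chromosome, and leaving out each replicate, were the alternatives.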

Additional observations from a re-analysis of the deposited data

Results flagged for a closer look

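On chromosome XII the 2 galactose samples and the other 3 lay on opposite sides of 0. The pericentromere minus the rest of the chromosome was 6.26 and 0.793 min in galactose, against -8.40 min in glucose and, for wild type, -9.75 and -8.49 min, so the galactose mean exceeded the mean of the other 3 by 12.4 min. This difference was not tested on its own. It was picked because every sample of 1 group lay on 1 side and every other sample on the opposite side, and the galactose replicates differed from each other by more than glucose and wild type did.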

How the results depend on the processing

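The smaller time margin of the pericentromeres in galactose kept its direction, with both galactose samples beyond the other 3, under the other widths, summaries, scales and definitions of the rest that were tried, and ran from 5.97 to 6.60 min with 1 replicate left out. The summed initiation within 20 kb had no stable sign: galactose minus the other 3 was -0.276, but 0.926 within 10 kb, 5.08 within 40 kb and 0.378 with joined positions, and -1.31 to 0.762 with 1 replicate left out. Within 10 kb both galactose samples lay above the other 3, at 10.2 and 9.83, against 9.57 in glucose and, for wild type, 8.64 and 9.00. Within 40 kb they did so too, at 32.4 and 33.3, against 29.2 in glucose and, for wild type, 26.8 and 27.4. The distance to the nearest site, at -0.0563 kb, was 0.135 kb for sites of probability at least 0.3, and -0.172 to 0.0592 kb with 1 replicate left out. With the chromosome mean subtracted, limma called 23, 32 and 8 windows of time for galactose against glucose, galactose against wild type and glucose against wild type, where it called 0 on deposited times. It also called 0 of them when times were centred on the median of the sample or taken as percentiles in the sample. With 1 replicate left out, windows of rightward share numbered 0 to 12 for galactose against glucose and 0 to 18 against wild type, and sites 3 to 5, 3 to 8 and 0 to 2 in the same 3 comparisons. The direction of the site calls turned with 1 library: against glucose they were 0 higher and 4 lower without galactose E and 1 higher and 4 lower without galactose G, in place of 3 higher, and against wild type 0 higher and 3 lower without E and 1 higher and 2 lower without G, in place of 2 higher and 1 lower. Sites joined within 1 kb numbered 6 for galactose against glucose and 2 for glucose against wild type, which had 1 at a probability of at least 0.3 and 1 on the arcsine scale. The cause of these changes was not tested, apart from the loss of 1 sample. No paired analysis was possible because the groups share no replicate numbers in the labels.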
